A study of Homo sapiens with 24 samples.

Results

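Histones are carried to new DNA by chaperone proteins, and the mRNAs that encode the replication-dependent histones need factors of their own. CAF-1, the chromatin assembly factor whose large and middle subunits are encoded by CHAF1A and CHAF1B, deposits histones H3 and H4 behind the replication fork. ASF1A and ASF1B hand H3-H4 dimers to it, NASP keeps a soluble H3-H4 reserve, and HJURP brings the H3 variant CENP-A to centromeres. NPAT switches on the histone genes at the start of S phase, CASP8AP2 (also called FLASH) takes part in cutting their pre-mRNA, and SLBP binds the stem-loop that ends histone mRNAs in place of a poly(A) tail.

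These 9 genes were followed in LNCaP cells, an established human prostate cancer line with luminal features, after siRNA against the lncRNAs TAPIR-1 or TAPIR-2. Their probes were found by the RefSeq accession that the array files give for each probe, which gave 12 probes among 50599 at 24 h and 11 among 58201 at 48 h. All 9 genes were above background on at least 3 arrays at both times, beside 36639 genes tested at 24 h and 37683 at 48 h. An accession without a RefSeq gene name counted as a gene of its own in these totals and in every share of all genes. The duplexes were electroporated, si-A1 to silence TAPIR-1, si-A2 to silence TAPIR-2 and the scrambled si-SCRL as control. RNA came from 4 biological replicates of each duplex after 24 h and another 4 after 48 h, and no untransfected cells are among the samples. All groups share the cell line, its serum-supplemented medium and the electroporation. One dim array, si-A2 replicate 2 at 48 h, was left out, so that group has 3 arrays. Each lncRNA was thus targeted by 1 duplex in 1 cell line.

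Values are log2 intensities of 1-colour Agilent arrays after quantile normalization within a time point, so levels of different probes or times cannot be set against each other. A gene was called changed where limma gave a Benjamini-Hochberg adjusted p below 0.01 over all genes and a log2 fold change of at least 0.5 in size, with the slide in the model. Both knockdowns at a time were compared with the same si-SCRL arrays, so their results are not independent. In these bulk samples, fewer cells in S phase and less mRNA per cell cannot be told apart.

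Each array correlated with the rest of its group with r from 0.963 to 0.99 over the genes tested, and the lowest was si-SCRL replicate 3 at 24 h, which also had the lowest median intensity at that time, 24.4. This array was the highest of its group for SLBP, HJURP, CHAF1B, CASP8AP2, NPAT and ASF1A. It was the lowest for ASF1B, the bright NASP probes and the brighter CHAF1A probe, though the highest on the second CHAF1A probe and the faintest NASP probe. The 24 h results against si-SCRL of each gene's brightest probe are given without it too. The other probes, the medians, the differences between time points and the genes beside the members are given only with it. The TAPIR-2 probe had log2 intensities of 5.04 ± 0.20 (SD, n = 4) in si-SCRL, 4.64 ± 0.32 (n = 4) in si-A1 and 4.06 ± 0.74 (n = 4) in si-A2 at 24 h, where it was well above background on 2 of 4 arrays. No TAPIR-1 probe was used here. At 48 h a second TAPIR-2 probe was below that mark on every array, and the first had 4.64 ± 0.58 (n = 4) in si-SCRL and 4.68 ± 0.90 (n = 3) in si-A2. KLK3, KLK2, FOLH1, TMPRSS2 and HOXB13, genes of luminal prostate cells, were well above background on every array. Of the markers of other cells, the basal KRT5 was below that mark on every array, while basal TP63 was above it at 24 h on 2 of 4 control, 2 of 4 si-A1 and 3 of 4 si-A2 arrays, and at 48 h on 1 array. The muscle gene DES, the endothelial CDH5 and 2 of 5 probes of the leukocyte gene PTPRC were above it on all arrays at both times. The stromal COL1A1 was above it at 24 h on 1 of 4 control, 2 of 4 si-A1 and 0 of 4 si-A2 arrays, and on 0 arrays at 48 h. Of the endothelial PECAM1 probes, the brightest was above it on every 24 h array and most 48 h arrays. Another was above it only on 1 of 3 si-A2 arrays at 48 h, and the last on no array. Their part in the results was not tested.

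The start regions of 4 members that were called and of ASF1A, which was not called in any comparison, are printed. Each is the RefSeq sequence of GRCh38.p14, the 250 bases before the annotated start, 5′ to 3′ on the gene's strand. They are chr19:4402390-4402639 (plus strand) for CHAF1A, chr19:14136590-14136839 (minus) for ASF1B, chr2:233854536-233854785 (minus) for HJURP, chr6:89829630-89829879 (plus) for CASP8AP2 and chr6:118893902-118894151 (plus) for ASF1A. Capitals mark matches on either strand to the CCAAT box (CCAAT), to the cell cycle element CHR (TTTGAA or TTCGAA) or to the E2F words TTTCCCGC, TTTCGCGC, TTTGCCGC and TTTGGCGC. In CHAF1A the last CCAAT and its reverse overlap, and ASF1A has no match.
CHAF1A: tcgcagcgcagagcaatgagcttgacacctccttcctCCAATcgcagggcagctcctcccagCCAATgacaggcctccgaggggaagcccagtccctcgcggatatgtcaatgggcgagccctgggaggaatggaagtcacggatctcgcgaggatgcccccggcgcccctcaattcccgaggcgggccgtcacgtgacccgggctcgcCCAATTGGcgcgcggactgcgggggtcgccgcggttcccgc
ASF1B: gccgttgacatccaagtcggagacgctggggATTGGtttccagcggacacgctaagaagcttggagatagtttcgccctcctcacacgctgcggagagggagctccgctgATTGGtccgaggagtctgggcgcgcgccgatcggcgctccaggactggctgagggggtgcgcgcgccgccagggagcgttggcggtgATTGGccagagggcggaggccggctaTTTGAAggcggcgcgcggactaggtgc
HJURP: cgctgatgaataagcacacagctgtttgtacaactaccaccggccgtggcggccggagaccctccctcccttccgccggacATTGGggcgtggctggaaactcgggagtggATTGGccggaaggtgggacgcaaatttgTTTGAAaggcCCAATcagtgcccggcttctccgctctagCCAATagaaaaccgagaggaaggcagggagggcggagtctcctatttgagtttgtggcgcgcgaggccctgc
CASP8AP2: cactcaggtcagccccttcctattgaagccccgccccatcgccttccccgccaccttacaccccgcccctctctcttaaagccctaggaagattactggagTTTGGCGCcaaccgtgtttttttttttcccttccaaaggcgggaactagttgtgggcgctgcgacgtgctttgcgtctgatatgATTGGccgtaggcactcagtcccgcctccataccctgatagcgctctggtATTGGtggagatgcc
ASF1A: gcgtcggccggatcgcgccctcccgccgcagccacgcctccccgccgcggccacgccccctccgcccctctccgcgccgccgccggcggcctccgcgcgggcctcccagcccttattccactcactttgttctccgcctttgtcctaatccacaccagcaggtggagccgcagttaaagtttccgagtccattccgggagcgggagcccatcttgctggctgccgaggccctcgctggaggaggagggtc

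A CCAAT box was found in 6 of the 9 members' windows and in 32% of all 35116 windows of that length. CHR words were in 2 of 9, ASF1B and HJURP, against 14.3% of all windows, and E2F words in 1 of 9, CASP8AP2, against 2.79%. The CHR of ASF1B lies 27 to 22 bases before the start, with an inverted CCAAT 53 to 49 bases before it, and that of HJURP lies 111 to 106 bases before the start. The windows of ASF1A, CHAF1B and SLBP held none of these words, though SLBP was called after si-A1 at 48 h. A match describes the sequence only.

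CHAF1A (chr19:4402640-4450830), the large subunit of CAF-1, fell under both siRNAs at both times. At 24 h its log2 intensities were 9.99, 9.90, 9.56 and 9.69 in si-SCRL, 8.40, 8.30, 8.33 and 7.99 in si-A1, and 8.17, 8.12, 8.13 and 8.04 in si-A2. Every knockdown array lay below every control array. The log2 fold change was -1.53 (SE 0.12, limma adjusted p = 9.85e-05) after si-A1 and -1.67 (SE 0.12, adjusted p = 5.75e-05) after si-A2, a 2.89-fold and a 3.18-fold lower level. Without control replicate 3 both were called, at -1.58 and -1.72.

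At 48 h CHAF1A stood at 10.02, 9.94, 9.75 and 9.96 in si-SCRL, at 7.66, 7.72, 7.38 and 7.68 in si-A1 and at 9.0, 8.44 and 8.86 in si-A2. The 3 groups did not overlap, and si-A2 lay between the other two. The log2 fold change was -2.31 (SE 0.12, limma adjusted p = 4.62e-05) after si-A1, 4.94-fold lower, and -1.12 (SE 0.13, adjusted p = 0.00636) after si-A2, 2.17-fold lower. The second CHAF1A probe moved the same way, by -1.41 and -1.52 at 24 h and by -1.89 and -0.90 at 48 h for si-A1 and si-A2, the last not called with every probe fitted on its own (limma adjusted p = 0.0351). The si-A2 call at 48 h was the least firm of the 4: its adjusted p rose above 0.01 without any 1 of the 11 arrays, with log2 fold changes from -1.20 to -0.99, and to 0.0166 with the replicate block. Within the slides alone it was -0.97 and -1.21.

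CHAF1B (chr21:36385392-36419015), the partner subunit, was not called in any comparison. It has 1 probe with 10 spots on each array, whose SD within an array lay between 0.061 and 0.283 on the log2 scale. At 24 h the means were 6.63 ± 0.42 (SD, n = 4) in si-SCRL, 5.69 ± 0.16 (n = 4) in si-A1 and 5.54 ± 0.47 (n = 4) in si-A2. All knockdown arrays lay below the 6.31 of the lowest control, with log2 fold changes of -0.93 (95% interval -1.51 to -0.36, limma adjusted p = 0.121) and -1.08 (-1.65 to -0.51, adjusted p = 0.0776). Without control replicate 3 they were -0.73 (limma adjusted p = 0.231) and -0.88 (adjusted p = 0.143), and with normexp background correction the si-A2 change was -0.58. At 48 h the groups overlapped, at 6.57 ± 0.20 (n = 4), 6.51 ± 0.29 (n = 4) and 6.34 ± 0.46 (n = 3), with -0.05 (-0.37 to 0.27) for si-A1. The difference between the subunits was not tested, since their probes are on different scales.

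The plot of log2 intensities by array shows all 9 genes side by side.

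**Figure D1:**
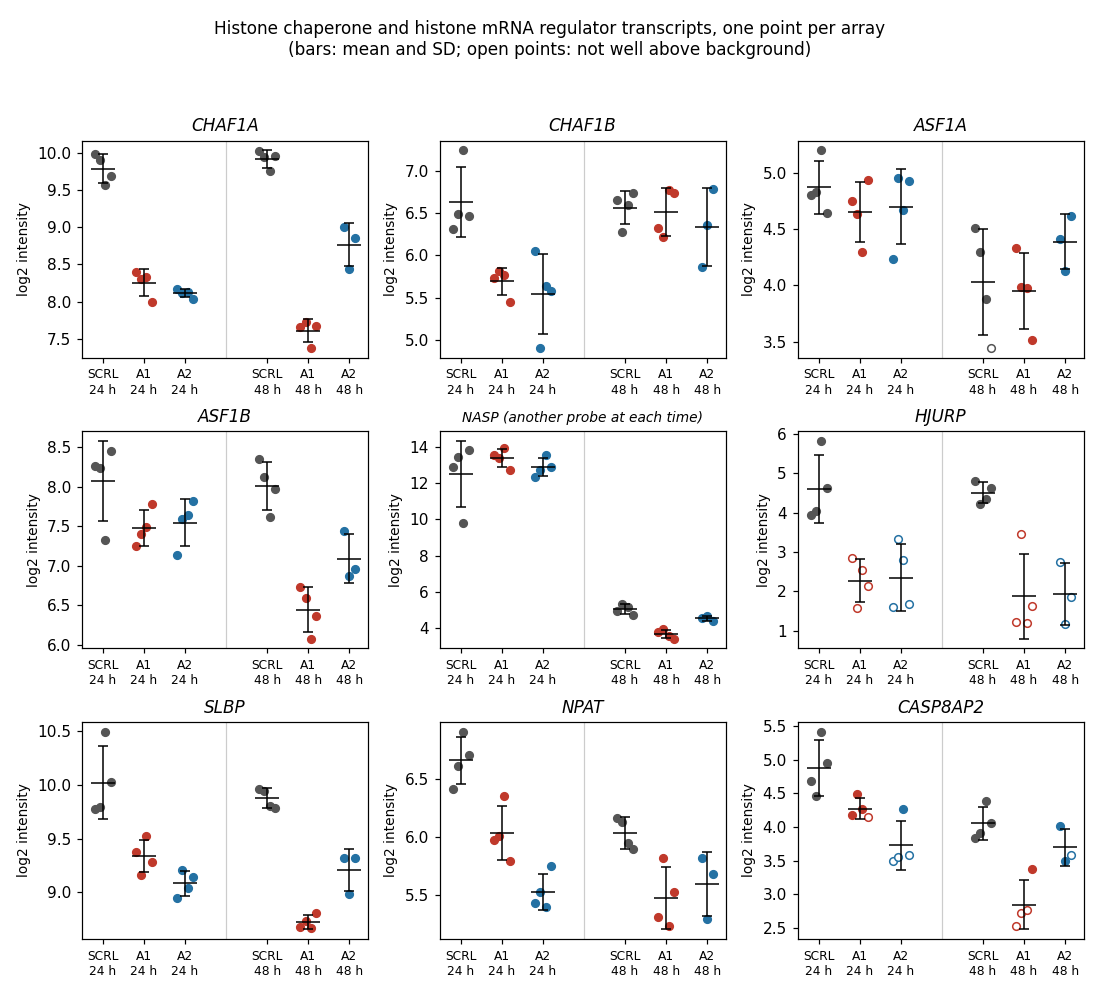
Normalized log2 intensity (y) of each gene's brightest probe by siRNA and time (x), 1 point per array, with the mean and SD of the 4 arrays of a group (3 for si-A2 at 48 h). Open points are not well above background: HJURP is open on every knockdown array, and CHAF1A knockdown arrays all lie below the controls at both times. NASP is shown by another probe at each time.

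Of the ASF1 paralogs, ASF1B was called in 1 comparison and ASF1A in none. ASF1A (chr6:118894152-118909171), the form tied to both replication-coupled and independent assembly, had means of 4.87 ± 0.23 (SD, n = 4), 4.65 ± 0.26 (n = 4) and 4.70 ± 0.33 (n = 4) in the control, si-A1 and si-A2 groups at 24 h, and 4.03 ± 0.47 (n = 4), 3.95 ± 0.34 (n = 4) and 4.39 ± 0.24 (n = 3) at 48 h. Its groups overlapped in every comparison, and its log2 fold changes against si-SCRL ran from -0.22 to 0.43. The probe was dim, which limits how far a decrease could show. At 48 h it was well above background on 3 of 4 control arrays. Without control replicate 3 the 24 h changes were -0.11 and -0.06. The 95% interval for si-A1 at 48 h was -0.52 to 0.36.

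ASF1B (chr19:14119512-14136589), the form of proliferating cells, stood at 8.34, 8.12, 7.62 and 7.96 in si-SCRL at 48 h, at 6.73, 6.60, 6.08 and 6.36 in si-A1 and at 7.44, 6.87 and 6.95 in si-A2. It fell after si-A1 by 1.57 on the log2 scale (SE 0.11, limma adjusted p = 6.73e-05), 2.97-fold, and kept that call without each of the 11 arrays. After si-A2 all 3 arrays lay below the controls, but the change of -0.85 (SE 0.12, limma adjusted p = 0.0118) missed the threshold. The difference between the paralogs was not tested, since values of different probes are on different scales.

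At 24 h ASF1B read 8.26, 8.24, 7.32 and 8.45 in si-SCRL, 7.25, 7.40, 7.49 and 7.78 in si-A1, and 7.13, 7.59, 7.64 and 7.81 in si-A2. Control replicate 3 lay among the knockdown arrays, and the other 3 controls lay above all of them. The change was -0.59 (SE 0.25, limma adjusted p = 0.372) after si-A1 and -0.52 (SE 0.25, adjusted p = 0.489) after si-A2. Without that array it was -0.89 (limma adjusted p = 0.0129) and -0.83 (adjusted p = 0.0212), still outside the call.

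NASP (chr1:45584041-45618893), the H3-H4 reserve chaperone, has 3 probes on the 24 h arrays that disagree, and 1 of them is also on the 48 h arrays. On that common probe NASP read 5.18, 5.41, 5.55 and 5.47 in si-SCRL at 24 h, 4.23, 4.73, 4.69 and 4.01 in si-A1, and 4.58, 4.78, 4.66 and 4.77 in si-A2. All knockdown arrays lay below all controls. With every probe fitted on its own, the log2 fold changes were -0.99 (SE 0.18, limma adjusted p = 0.0155) and -0.70 (SE 0.18, adjusted p = 0.0955), neither called.

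The brightest NASP probe, the one taken by the rule of 1 probe per gene, read 12.91, 13.43, 9.82 and 13.84 in si-SCRL, between 12.72 and 13.93 in si-A1 and between 12.34 and 13.54 in si-A2 at 24 h. The other bright probe had the same low value in control replicate 3, 9.39 against 12.67 to 13.93 in the other controls. The log2 fold change of the brightest probe was 0.89 (SE 0.74, limma adjusted p = 0.631) for si-A1 and 0.38 (SE 0.74, adjusted p = 0.885) for si-A2, and without control replicate 3 it was -0.06 and -0.58. The direction of NASP at 24 h thus depends on the probe and on that array.

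**Figure D2:**
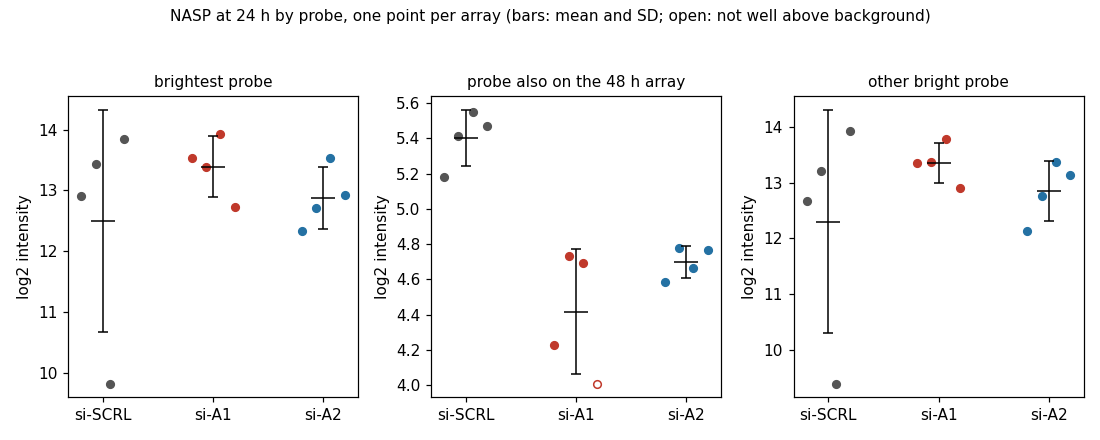
NASP at 24 h on its 3 probes: normalized log2 intensity (y) by siRNA (x), 1 point per array, with mean and SD of 4 arrays, each panel on its own scale. The brightest and the other bright probe have 1 control array at 9.82 and 9.39, far below the rest, while the probe also on the 48 h array has every knockdown array below the controls.

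At 48 h the common probe read 4.94, 5.35, 5.17 and 4.73 in si-SCRL, 3.78, 3.96, 3.58 and 3.43 in si-A1, and 4.57, 4.68 and 4.40 in si-A2. The groups did not overlap, and NASP fell after si-A1 by 1.36 on the log2 scale (SE 0.14, limma adjusted p = 0.000488), 2.57-fold. The change after si-A2 was -0.46 (SE 0.16, limma adjusted p = 0.181). The si-A1 call held without each of the 11 arrays, at -1.44 to -1.27. The size rests on the background correction: it was -0.36 with normexp and -0.50 with none, below the size asked of a call, with limma adjusted p = 0.000844 and 0.000369.

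HJURP (chr2:233836702-233854535), the CENP-A chaperone, was well above background on all 8 control arrays and on none of the 15 knockdown arrays, so its decrease has only a lower limit. The controls read 3.95, 4.03, 5.82 and 4.62 at 24 h and 4.81, 4.23, 4.35 and 4.64 at 48 h. The means of the knockdown arrays were 2.27 after si-A1 and 2.35 after si-A2 at 24 h, and 1.87 and 1.93 at 48 h. Set against the lowest signal rated well above background on each knockdown array, HJURP was at least 2.02-fold lower after si-A1 and at least 1.88-fold lower after si-A2 at 24 h, and at least 2.41-fold and 2.28-fold lower at 48 h. Without control replicate 3, which read 5.82, the 24 h limits were 1.53-fold and 1.42-fold, and the limma adjusted p rose to 0.0906 and 0.115. At 48 h the probe exceeded the negative controls on 5 of 11 arrays and so passed the filter through the group where it is high, which makes its fitted p no support beyond the limit. Of the 4 fitted comparisons only si-A1 at 48 h was called (limma adjusted p = 0.00636); the others had adjusted p = 0.0356, 0.0485 and 0.0379. That call held in 4 of 11 fits that leave out 1 array, the highest adjusted p being 0.0225, and was lost with the replicate block (adjusted p = 0.0156). With normexp background correction the fitted changes shrank to between -0.45 and -0.38.

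SLBP (chr4:1692731-1712319), the histone stem-loop binding protein, read 9.77, 9.79, 10.50 and 10.03 in si-SCRL at 24 h, 9.38, 9.16, 9.52 and 9.29 in si-A1, and 8.94, 9.20, 9.04 and 9.15 in si-A2. No knockdown array reached the lowest control. The changes of -0.68 (SE 0.16, limma adjusted p = 0.0586) and -0.94 (SE 0.16, adjusted p = 0.0117) missed the threshold, and without control replicate 3 they were -0.55 (adjusted p = 0.0674) and -0.80 (adjusted p = 0.0114).

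At 48 h SLBP stood at 9.96, 9.95, 9.81 and 9.79 in si-SCRL, at 8.67, 8.73, 8.67 and 8.81 in si-A1 and at 9.32, 8.98 and 9.32 in si-A2. The groups were fully apart, with si-A2 between the other two, and SD in si-A1 was only 0.06 (n = 4). SLBP fell after si-A1 by 1.15 (SE 0.10, limma adjusted p = 0.000152), 2.23-fold, and kept that call without each of the 11 arrays. After si-A2 the change was -0.65 (SE 0.11, limma adjusted p = 0.0192).

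NPAT (chr11:108157215-108222638), the coactivator of histone genes, fell after si-A2 at 24 h. It read 6.41, 6.61, 6.91 and 6.71 in si-SCRL, 5.98, 6.01, 6.36 and 5.80 in si-A1, and 5.43, 5.53, 5.40 and 5.75 in si-A2. The 3 groups did not overlap, and here si-A2 was the lowest. The change was -1.13 (SE 0.15, limma adjusted p = 0.00276) for si-A2, 2.19-fold lower, and -0.62 (SE 0.15, adjusted p = 0.0767) for si-A1. The si-A2 call held in 7 of 12 fits that leave out 1 array, at -1.20 to -1.05, and missed the threshold when si-A2 replicate 1, 2 or 3 or si-SCRL replicate 2 or 4 was removed. The call was also lost with the replicate block (limma adjusted p = 0.012) and with only the compared groups in the fit (adjusted p = 0.0174), and kept with normexp background correction, at -0.59 (adjusted p = 0.00147), and without si-SCRL replicate 3, at -1.06 (adjusted p = 0.00808). The si-A1 change without that array was -0.56 (adjusted p = 0.14). At 48 h NPAT was lower on all knockdown arrays than on all controls, with -0.56 (SE 0.14, limma adjusted p = 0.0268) and -0.40 (SE 0.15, adjusted p = 0.226), neither called.

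CASP8AP2 (chr6:89829880-89874436), the histone pre-mRNA processing factor, lay near background. At 24 h it read 4.68, 4.46, 5.42 and 4.95 in si-SCRL, 4.18, 4.49, 4.27 and 4.15 in si-A1, and 3.49, 3.55, 4.27 and 3.59 in si-A2, where 1 of 4 arrays was well above background. The change for si-A2 was -1.15 (SE 0.21, limma adjusted p = 0.0187) and that for si-A1 -0.60 (SE 0.21, adjusted p = 0.246). Without control replicate 3 they were -1.01 (limma adjusted p = 0.0416) and -0.46 (adjusted p = 0.4). At 48 h the controls read 3.84, 3.91, 4.39 and 4.06, and si-A1 2.53, 2.72, 2.77 and 3.37, with 1 of 4 well above background. It fell after si-A1 by 1.21 (SE 0.20, limma adjusted p = 0.005), 2.31-fold, a call that held in 3 of 11 fits that leave out 1 array and was lost with the replicate block (adjusted p = 0.0167). With normexp background correction the change was -0.20 (limma adjusted p = 0.0128). A second probe at 48 h gave -0.78 (SE 0.35, limma adjusted p = 0.175), and si-A2 gave -0.39 (SE 0.22, adjusted p = 0.406) on the first.

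Counted together, 1 of the 9 genes was called lower after si-A1 at 24 h, where 0.958% of all genes tested were, and 2 of 9 with si-A2, against 0.827%. At 48 h 6 of 9 passed for si-A1, against 3.66%, and 1 of 9 for si-A2, against 0.379%. The 6 include HJURP, which passed the filter through the controls, and 5 were called without it. With the replicate block in the model, CASP8AP2 and HJURP lost the si-A1 call at 48 h and CHAF1A lost the si-A2 call. None was called higher. The median log2 fold change of the 9 was -0.62 and -1.08 at 24 h and -1.21 and -0.46 at 48 h for si-A1 and si-A2, beside medians of 0.05, 0.05, 0.06 and 0.01 over all genes. Within each slide alone no gene of the whole array was called. The 10 called decreases ran from -0.97 to -3.09 within the slides. They were picked from these same arrays, so their shared sign on both slides adds no support. The -3.09 is HJURP, whose decrease has only a lower limit.

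**Figure D3:**
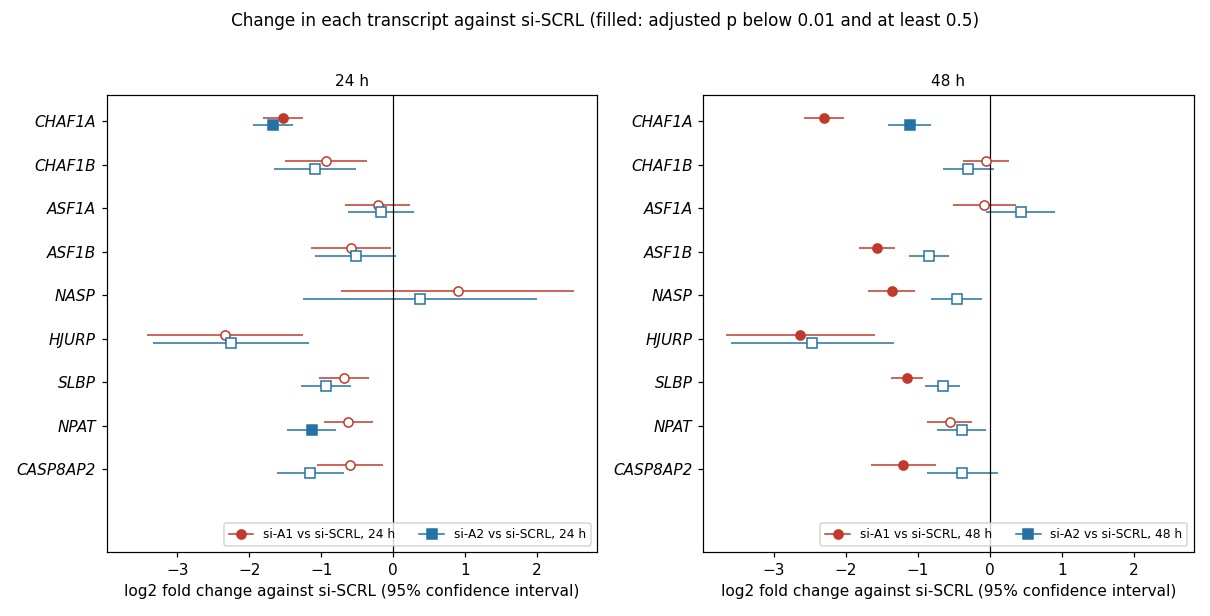
Log2 fold change against si-SCRL (x) of each gene (y) with its 95% confidence interval, at 24 h (left) and 48 h (right), circles for si-A1 and squares for si-A2. Filled symbols were called (adjusted p below 0.01 and at least 0.5 in size): CHAF1A in all 4 comparisons, NPAT after si-A2 at 24 h, and 6 genes after si-A1 at 48 h.

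The siRNAs were also compared with each other. At 24 h none of the 9 genes differed between si-A2 and si-A1 by the limma call, against 0.308% of all genes called, and 2 of 9, NPAT and CASP8AP2, had an unadjusted p below 0.05, as did 10.7% of all genes. The si-A2 minus si-A1 difference was -0.51 on the log2 scale for NPAT (95% interval -0.85 to -0.17), -0.55 for CASP8AP2 (-1.01 to -0.09) and -0.14 for CHAF1A (-0.41 to 0.14). At 48 h CHAF1A was called, against 1.36% of all genes, with si-A2 above si-A1 by 1.19 on the log2 scale (SE 0.13, limma adjusted p = 0.00252). Removing si-A1 replicate 1, 2 or 3 or si-A2 replicate 1 or 4 took it past the threshold (highest adjusted p = 0.0276), with differences from 1.11 to 1.32 over all 11 removals. ASF1B, NASP, CASP8AP2 and SLBP had differences of 0.72, 0.90, 0.82 and 0.50 but were not called (limma adjusted p = 0.0128, 0.0157, 0.0716 and 0.0338). With the replicate block NASP was called as well (0.96, adjusted p = 0.00918).

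Whether an effect differed between the time points was tested over probes common to both array versions. No member passed for si-A1, where 0.179% of all genes were called, nor for si-A2, where 0.0463% were. At an unadjusted limma p below 0.05, 4 of 9 differed for each siRNA, beside 12.7% and 7.31% of all genes. For CHAF1A the 48 h effect minus the 24 h effect was -0.71 (95% interval -1.05 to -0.38, limma adjusted p = 0.0445) for si-A1 and 0.61 (0.26 to 0.96, adjusted p = 0.284) for si-A2. ASF1B had -0.99 (-1.58 to -0.40, limma adjusted p = 0.114) for si-A1, while CHAF1B had 0.89 (0.24 to 1.54, adjusted p = 0.215). Both take in si-SCRL replicate 3 at 24 h. Without that array the 24 h si-A1 change was -0.89 in place of -0.59 for ASF1B and -0.73 in place of -0.93 for CHAF1B. The time differences of single genes were not refitted without it. The time points lie on different array versions and slides, so time and array version cannot be told apart.

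**Figure D4:**
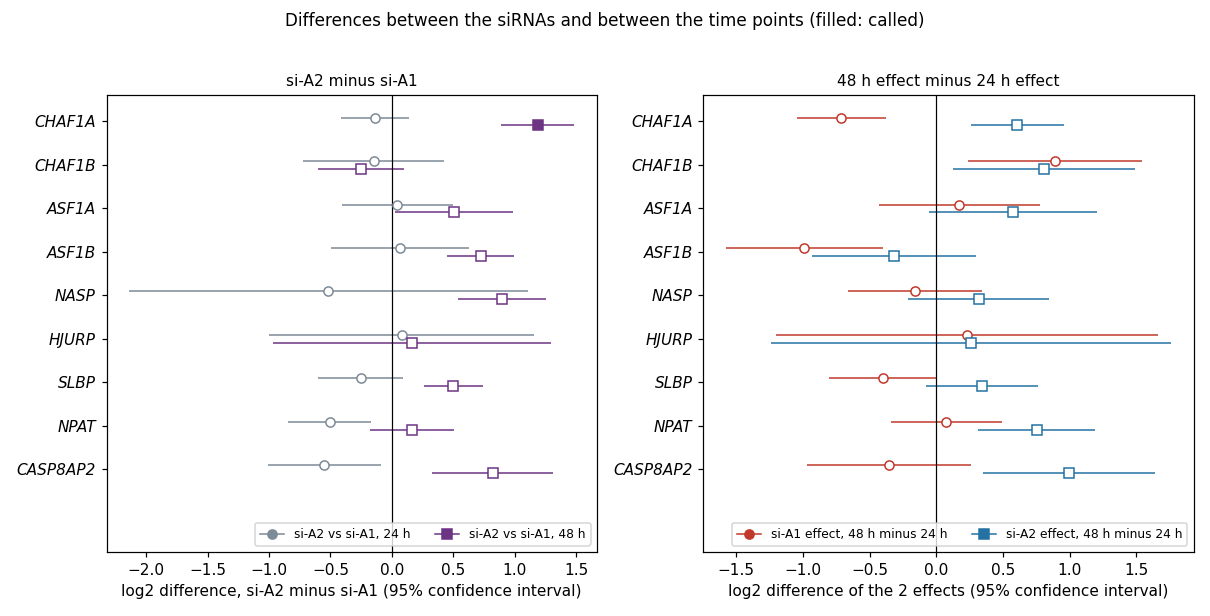
Left, log2 difference between si-A2 and si-A1 (x) of each gene (y) at 24 h (circles) and 48 h (squares). Right, the 48 h effect minus the 24 h effect for si-A1 (circles) and si-A2 (squares), all with 95% confidence intervals. The 1 filled, called value is CHAF1A at 48 h, 1.19 higher after si-A2.

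Beside the members stand the other histone chaperones, a list of 24 genes of which 23 were tested at 24 h and 24 at 48 h. At 24 h 2 were called lower with si-A1 and 1 with si-A2, and at 48 h 10 and 0. Of all genes tested, 0.958% and 0.827% were called lower at 24 h, and 3.66% and 0.379% at 48 h. None was called higher. MMS22L, the partner of TONSL at replication forks, fell by 1.32 and 1.13 at 24 h and by 1.66 after si-A1 at 48 h. Its change after si-A2 at 48 h was -0.98 (limma adjusted p = 0.0207), not called. DNAJC9, a heat shock co-chaperone that binds H3-H4, fell by 0.98 and by 1.77 after si-A1 at 24 h and 48 h. After si-A2 its changes were -0.84 (limma adjusted p = 0.0241) and -0.80 (adjusted p = 0.0153), neither called. HIRA, which deposits H3.3 independently of replication, stayed between -0.06 and 0.08 against si-SCRL in the 4 comparisons. NPM1, a nucleolar chaperone, lay between -0.08 and 0.13, and VPS72, an H2A.Z chaperone, between -0.04 and 0.25. The list's median was -0.15 and -0.06 at 24 h and -0.29 and -0.20 at 48 h.

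Among the genes that work with HJURP, CENPA encodes the centromeric H3 variant itself, and OIP5 and MIS18A prepare centromeres to receive it. None of these 3 was called at 24 h, all 3 passed as lower for si-A1 at 48 h, and CENPA alone for si-A2. CENPA was not well above background on any knockdown array at 48 h and was at least 2.61-fold lower with si-A1 and at least 2.4-fold lower with si-A2 (limma adjusted p = 0.000139 and 0.00603). As for HJURP, these p-values come from a gene well above background in the controls alone and add no support to the limits. OIP5 fell by 3.02 and MIS18A by 0.97 on the log2 scale after si-A1 at 48 h (limma adjusted p = 0.00117 and 0.00401).

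Of the 19 other genes of histone mRNA transcription, processing and decay, none was called at 24 h. At 48 h 1 was called lower after si-A1, where 3.66% of all genes were. It was ZNF473, a zinc finger protein of the histone pre-mRNA cleavage complex, with -0.93 (SE 0.11, limma adjusted p = 0.000834). LSM10, a subunit of the U7 snRNP, lay between 0.00 and 0.11 in the 4 comparisons with si-SCRL, the cleavage factor CPSF2 between -0.24 and 0.09 and the cap-binding NCBP1 between -0.34 and -0.04. The list's median ran from -0.34 to -0.13 over these comparisons.

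The members moved beside S-phase genes and the histones themselves, and the part of these lists in the result was not tested. Of 42 S-phase genes tested, 25 and 27 were called lower at 24 h with si-A1 and si-A2, and 37 and 2 at 48 h. The shares over all genes were 0.958% and 0.827% at 24 h, and 3.66% and 0.379% at 48 h. Of the replication-dependent histone genes, 42 and 48 of 65 were called lower at 24 h and 56 and 10 of 64 at 48 h, and 1 was called higher, after si-A1 at 48 h. The histone list's median was -1.43 and -1.57 at 24 h and -2.31 and -1.33 at 48 h. The uniqueness of probe sequences was not checked, so these histone genes may not be separate readings.

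Over the 12 arrays at 24 h, the named genes most like NPAT by Pearson's r were CEP152 (0.97), TMPO (0.96) and SUDS3 (0.95), and over the 11 arrays at 48 h the same pairs had 0.74, 0.88 and 0.25. For SLBP they were RPIA (0.98), PBK (0.97) and ARHGEF26 (0.97), with 0.63, 0.98 and 0.82 at 48 h. For ASF1B they were SPDL1 (0.91), S100A5 (0.90) and RNASEH2A (0.89), with 0.61, 0.15 and 0.93 at 48 h. For HJURP they were PBK (0.95), SUV39H2 (0.94) and CDK1 (0.94), with 0.87, 0.78 and 0.84 at 48 h. HJURP was well above background on the control arrays alone, so its r takes in knockdown values near background. The arrays in each r include all 3 siRNAs, and the genes were picked for their r at 24 h, so these are descriptions.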

How the data were processed

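The authors hybridised Cy3-labelled cRNA of each sample to 1 Agilent SurePrint G3 array (v2 at 24 h, v3 at 48 h) and read it with Feature Extraction 11.5.1.1. The deposited spot intensity is background-subtracted and detrended within the array. The authors also deposited log2 values after quantile normalization, used as an alternative. The submitters' notes name R 3.4.3, limma 3.34.8 and hg38.

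Here log2 intensities were quantile-normalized within a time point (over both for the interaction), outlier-marked spots left out and spots of a probe averaged. A probe passed if it exceeded the mean plus 3 SD of 308 negative controls on 3 or more arrays, with 2 values per siRNA. Accessions named 29033 probes at 24 h and 31104 at 48 h through RefSeq (GRCh38.p14). The brightest probe stood for a gene. The uniqueness of probe sequences was not checked. limma 3.58.1 (R 4.3.3) fitted all 3 siRNAs with the slide (2 per time point) as a term. Code was tested on simulated data. Saturation was seen on 0 spots. Precision is limited by the number of arrays.

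Same-numbered arrays deviated together at 48 h (r from 0.19 to 0.37 over genes, every pair above 0.1), so the 48 h replicate block is given beside results it changes. Replicates 1 and 2 share a slide, as do 3 and 4, and after removal of slide means r was 0.026 to 0.088. Alternatives covered background correction, scaling, the authors' values, slide, pairing, samples fitted, filters, probe rule, thresholds, the dim array and each array left out. The members, lists and tests were chosen with earlier results of these data known. Named were all members, listed genes called at 24 h or changed least (3 a list), and the 3 genes most like 4 members. CENPA, ZNF473 and the 48 h calls of centromere genes were picked after their values were seen. Some listed and marker genes are not reported here. Unused columns of other samples numbered 0.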

Additional observations from a re-analysis of the deposited data

Results flagged for a closer look

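In 45 groups of 4 arrays, Dixon's ratio marked 2 single values, close to the 1 in 20 that chance marks. CASP8AP2 read 4.27 in si-A2 replicate 3 at 24 h, against 3.49 to 3.59 on the other 3 arrays. CHAF1A read 7.38 in si-A1 replicate 3 at 48 h, against 7.66 to 7.72 on the other 3, still far below the controls. No member's effect differed between the time points by the limma call.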

How the results depend on the processing

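Of 774 log2 fold changes refitted under other settings, 710 kept their direction and side of the threshold, 39 lost the call, 12 gained it and 13 turned direction. Of 621 with 1 array left out, 567 kept both, 36 lost the call and 18 turned. The CHAF1A calls at 24 h and the CHAF1A, ASF1B, NASP and SLBP calls for si-A1 at 48 h held in every such removal.

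All turns but NASP at 24 h concern changes under 0.4 in size. ASF1A for si-A1 at 48 h was 0.0419 with 75th percentile scaling and 0.0842 within slide 2, and its 24 h difference between siRNAs was -0.011 with that scaling, -0.0035 with no background correction and -0.0923 within slide 1. HJURP between siRNAs at 24 h was -0.0913 with 75th percentile scaling and -0.0931 within slide 2. CASP8AP2 for si-A2 at 48 h was 0.13 within slide 1, and CHAF1B for si-A1 was 0.0916 within slide 2. NASP for si-A2 at 24 h was -0.65 within slide 1, and by the probe on both array versions, a choice made after seeing the data, NASP gave -0.99 for si-A1, -0.70 for si-A2 and 0.28 between them. With 1 array left out, the results that turned ran from -0.22 to 0.0168 (ASF1A, si-A1, 48 h), -0.10 to 0.20 (ASF1A between siRNAs, 24 h), -0.0152 to 0.20 (ASF1B between siRNAs, 24 h), -0.42 to 0.0073 (CASP8AP2, si-A2, 48 h), -0.12 to 0.0621 (CHAF1B, si-A1, 48 h), -0.37 to 0.0639 (CHAF1B between siRNAs, 24 h), -0.37 to 0.40 and -0.16 to 0.58 (HJURP between siRNAs, 24 h and 48 h), -0.0635 to 1.44 (NASP, si-A1, 24 h) and -0.58 to 0.93 (NASP, si-A2, 24 h). Both NASP turns with 1 array left out came with the removal of si-SCRL replicate 3. The causes of the other turns were not tested.

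The number of members called lower was 1, 2, 6 and 1 (si-A1 and si-A2 at 24 h, then at 48 h), and 1 differed between siRNAs at 48 h. Within either slide alone, with fewer arrays, each of these was 0, as was every count at 48 h with the dim array kept, where si-A1 calls over all genes fell from 2194 to 23. An adjusted p below 0.05 gave 2, 5, 7, 4 and 4, and 1 for the si-A1 time difference, which normexp also made 1. Normexp gave 3 at 48 h for each siRNA. No background correction gave 3 for si-A2 and 2 between siRNAs at 48 h, and the filter on well above background 2 and 3. With only the groups compared, si-A2 had 1 at 24 h and 0 at 48 h, and 0 differed between siRNAs. The interquartile filter left 1 at 24 h and 0 at 48 h for si-A2, and the median of probes 0 at 48 h. The replicate block gave 1 for si-A2 at 24 h, 0 for si-A2 and 2 between siRNAs at 48 h. Same-numbered arrays did not pair at 24 h, with r of deviations from -0.15 to 0.15. With 1 array left out the counts ran from 1 to 2 for si-A2 at 24 h, 4 to 6 for si-A1 at 48 h, 0 to 0 for si-A2 and 0 to 1 between siRNAs at 48 h. Over all genes, calls under these settings (other than arrays left out) ranged from 0 within slides to 763 and 618 at 24 h and 4263 and 932 at 48 h for si-A1 and si-A2 at an adjusted p below 0.05, and to 424 and 1552 between siRNAs, against 378, 331, 2194, 167, 113 and 511. The member counts under each setting are not set against the share of all genes called under it. Intensities near background bound HJURP, CASP8AP2, NASP and ASF1A.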
